A study of Mus musculus with 6 samples.

Results

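The nuclear end of the canonical Wnt pathway was described here through 10 genes: the 4 TCF/LEF transcription factors (Tcf7, Tcf7l1, Tcf7l2 and Lef1), the catenins Ctnnb1 and Jup, and the coactivators Bcl9, Bcl9l, Pygo1 and Pygo2. They were chosen by symbol from the 53677 genes of the deposited expression table, and all 10 were found. The cells were short-term hematopoietic stem cells (ST-HSC), multipotent blood progenitors with limited self-renewal, sorted as Lin- ckit+ CD48+ CD150- from C57BL/6J bone marrow that was freed by grinding the long bones, pelvis and spine. RNA sequencing was done on 3 samples from wild-type mice (WT, genotype label dnTCF4-/-) and 3 from mice that express dnTCF4, a dominant-negative TCF4 (genotype label dnTCF4+/+). The comparison asks what changes in these progenitors when a factor built to compete with the endogenous TCF/LEF proteins is present. The labels give neither the species and length of the transgene, nor the promoter that drives it, nor the age of the mice, and Sca-1 is not among the markers of the sort.

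TCF/LEF proteins bind DNA through an HMG box and have little transcriptional activity of their own. Without a Wnt signal they carry Groucho/TLE corepressors, while cytoplasmic β-catenin is marked for degradation by the destruction complex of Axin, APC, GSK3 and casein kinase 1. When that complex is inhibited, β-catenin enters the nucleus, binds the N-terminus of TCF/LEF proteins and recruits BCL9 proteins, which in turn bind Pygopus proteins. A TCF that lacks this N-terminus still occupies DNA but cannot bind β-catenin, which is the principle of dominant-negative constructs. Tcf7 (TCF1) and Lef1 are best known in blood from T-cell and innate lymphoid development. Both are also described as targets of the pathway.

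Natural short forms of TCF/LEF proteins arise from internal starts, and the gene-level values cannot tell such forms apart. Of the 3 RefSeq start windows (GRCm38.p6) shown, those of Tcf7l2 and Lef1 are at internal starts. The Tcf7 start shown is the first base of the gene model, so it is not internal to that model. An open reading frame begins upstream of it, as marked below, and whether the start lies inside a longer form was not tested. Another Tcf7 start, not shown, lies 419 bases inside the model. Each covers 250 bases before an annotated start and 20 bases from it, 5′ to 3′ on the gene's strand, and the start is base 251. In the Tcf7 window (chr11:52282995-52283264, minus strand) the capitals mark an ATG at position -165 from the start, whose reading frame meets no stop codon before the end of the window. In the Tcf7l2 window (chr19:55895071-55895340, plus strand) they mark CTTTGTT at position -14 of a start that lies 153501 bases inside the gene. In the Lef1 window (chr3:131156044-131156313, plus strand) they mark TACAAAG, the reverse strand of CTTTGTA, at position -147 of a start 45823 bases inside the gene.
Tcf7: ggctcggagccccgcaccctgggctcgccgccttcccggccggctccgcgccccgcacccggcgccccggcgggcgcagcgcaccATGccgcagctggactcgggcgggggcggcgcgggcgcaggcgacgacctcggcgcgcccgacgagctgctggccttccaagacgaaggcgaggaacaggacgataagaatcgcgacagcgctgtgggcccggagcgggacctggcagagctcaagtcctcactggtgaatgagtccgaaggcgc
Tcf7l2: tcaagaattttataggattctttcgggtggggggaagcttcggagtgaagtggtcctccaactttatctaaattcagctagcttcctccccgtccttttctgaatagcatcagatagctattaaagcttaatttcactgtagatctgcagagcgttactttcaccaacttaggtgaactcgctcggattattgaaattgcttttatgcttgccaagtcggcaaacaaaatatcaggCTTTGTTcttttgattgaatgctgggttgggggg
Lef1: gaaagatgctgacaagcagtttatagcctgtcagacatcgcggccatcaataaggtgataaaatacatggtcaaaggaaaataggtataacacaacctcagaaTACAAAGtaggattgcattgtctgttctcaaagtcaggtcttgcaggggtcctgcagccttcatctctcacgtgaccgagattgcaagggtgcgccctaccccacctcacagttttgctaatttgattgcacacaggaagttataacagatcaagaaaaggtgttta

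The Tcf7 start shown is base 52283014, the last base of the Tcf7 model in GENCODE M21. Transcript upstream of it, the ATG in capitals included, therefore lies outside the exons of that model. The Tcf7l2 and Lef1 starts shown are internal, and reads from them add to the same gene-level value as reads from the full-length forms. The core word that TCF/LEF factors bind, CTTTG followed by AA, AT, TA or TT, was searched on both strands of the whole 300-base RefSeq windows. It occurred in 2 of the 17 windows of the 9 genes that had one, the internal Tcf7l2 and Lef1 starts above, a share of 11.8%. Over all 32851 RefSeq promoter windows of that length the share was 16.9%.

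The libraries held between 57384595 and 110895167 reads counted to genes, with the most in dnTCF4 replicate 2. Immunoglobulin genes made up 25.55% to 44.1% of the summed RPKM (reads per kilobase of exon, divided by library depth) of the WT libraries and 3.27% to 6.33% in dnTCF4. As RPKM is divided by depth, reads of these genes lower the values of all other genes. Their share of the counted reads was not computed, so the size of this effect in reads was not tested. The Y-linked gene Ddx3y was read in replicate 1 of both genotypes and listed at 0 in the other 4 libraries. Of the sort-gate genes, Kit was at 35.5 to 97.1 RPKM, Cd48 at 813 to 1415 RPKM and Slamf1, which encodes CD150, at 0.744 to 1.18 RPKM over the 6 libraries. Genes were tested with limma on log2(RPKM + 1), and 34 of the 11326 genes whose mean reached 1 RPKM (0.3%) passed a Benjamini-Hochberg adjusted p of 0.05, 5 of them higher and 29 lower in dnTCF4. With median ratio scaling the split was 0 higher and 26 lower. The median log2 difference of all tested genes, dnTCF4 minus WT, was 0.14 in the values as deposited and -0.04 after median ratio scaling, and each difference is to be read against that shift. With immunoglobulin genes left out and the rest scaled to a common sum, the median was -0.02. The share of tested genes higher in dnTCF4 was then 46.6%, against 68.5% as deposited.

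None of the 10 genes passed the adjusted threshold, with or without a filter on low values. Ctnnb1 stood alone at a mean of 12.4 RPKM over the 6 libraries, higher in each library than any other member, and above 66.8% of the tested genes. Pygo2 (2.47 RPKM), Tcf7l2 (1.91), Bcl9 (1.73), Bcl9l (1.31) and Tcf7 (0.996) followed, and each overlapped its neighbour in this order over the libraries. Jup (0.256 RPKM) overlapped the lowest Tcf7 values but lay above all values of Tcf7l1 (0.0601 RPKM) and Lef1 (0.0486 RPKM), which overlapped each other. Pygo1 (0.0065 RPKM) had the lowest mean, although in dnTCF4 replicate 3 (0.0330 RPKM) it stood above both. RPKM is per length of exon, so these levels can be set side by side.

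**Figure D1:**
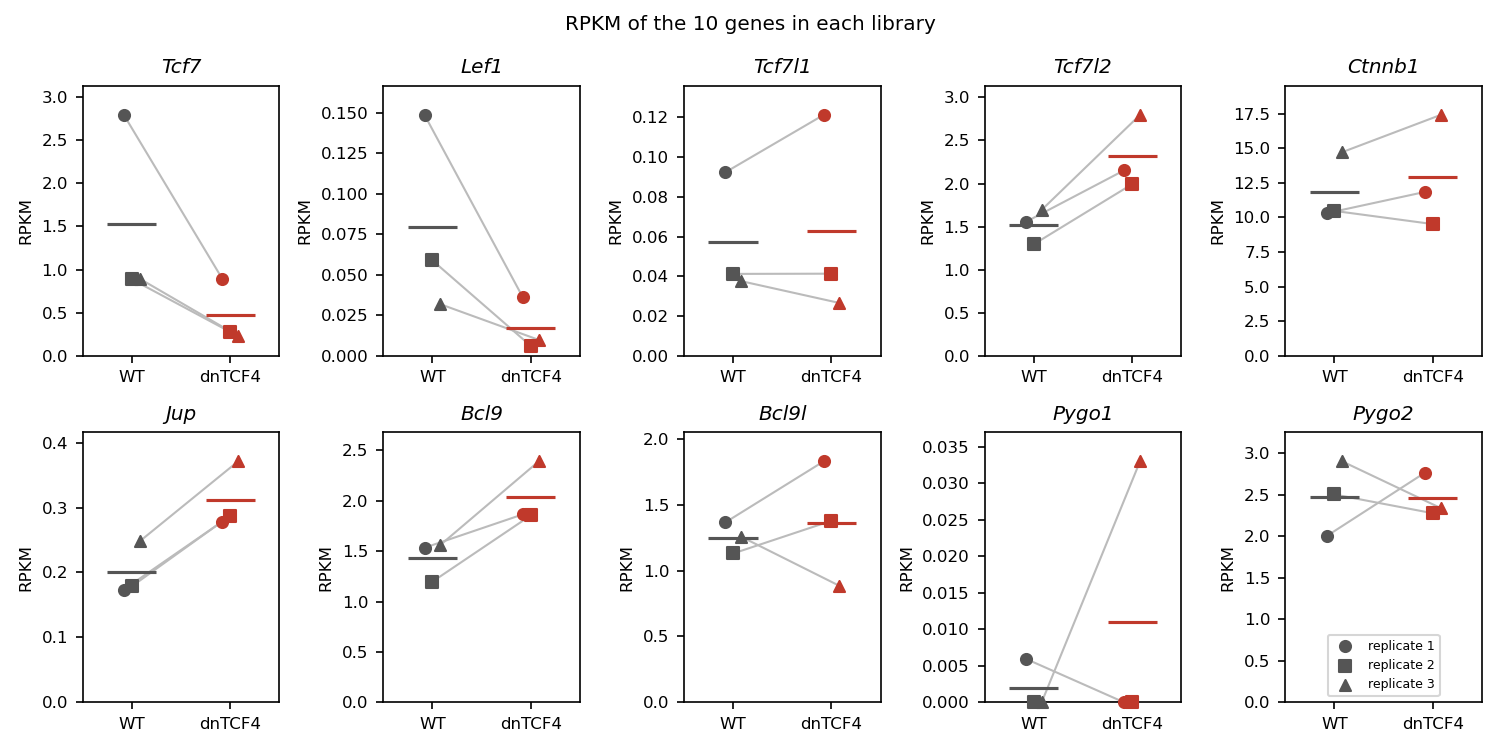
RPKM of the 10 genes in WT and dnTCF4 libraries, each panel on its own linear axis from 0. Points are single libraries, symbols are replicate numbers, grey lines join libraries with the same number and horizontal bars are group means; Tcf7 and Lef1 are lower in dnTCF4 in each of the 3 pairs, and Tcf7l2, Jup and Bcl9 are higher.

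Tcf7 (GRCm38 chr11:52252371-52283014, minus strand), which encodes the T-lineage factor TCF1, was the member with the largest difference on the tested scale. Its values in WT replicates 1, 2 and 3 were 2.79, 0.888 and 0.895 RPKM, from 465, 144 and 159 reads. In dnTCF4 replicates 1, 2 and 3 it was at 0.894, 0.278 and 0.232 RPKM, from 148, 81 and 35 reads. WT replicate 1 was high and the highest dnTCF4 value, replicate 1 again, lay just inside the range of WT, so the groups overlapped. After median ratio scaling they were apart by a narrow gap, with WT replicate 3 at 0.865 and dnTCF4 replicate 1 at 0.854 scaled RPKM. How many of all genes were lower without overlap after that scaling was not counted. Pair by pair, matched on the replicate number, the WT value was 3.12, 3.19 and 3.85 times the dnTCF4 value, a mean log2 ratio of -1.75 ± 0.17 (SD, n = 3 pairs). The exact two-sided permutation test on RPKM, which ignores the pairs, gave p = 0.2, and 0.1 is the smallest p that 3 libraries against 3 can give. Tcf7 fell just under the filter, and limma without a filter gave a difference of -0.73 on the log2(RPKM + 1) scale (SE 0.35, 95% interval -1.58 to 0.13, adjusted p = 0.69), a fit in which 6 of 30670 genes (0.0196%) passed. Without WT replicate 1 the limma difference was -0.39 (SE 0.23, adjusted p = 0.83). As this was bulk RNA, fewer cells that express a gene and less RNA per cell cannot be told apart, in this and every other result.

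Lef1 (chr3:131110471-131224356, plus strand), the other factor of lymphoid development, was at a lower level than Tcf7 in every library. Of its exon bases 1208 (13.75%) are shared with the antisense model Gm43352, which was listed at 0. Its values were 0.149, 0.0590 and 0.0319 RPKM in the WT libraries, from 83, 32 and 19 reads, and 0.0361, 0.00616 and 0.00991 RPKM in the dnTCF4 libraries, from 20, 6 and 5 reads. The groups overlapped through dnTCF4 replicate 1, which lay above WT replicate 3. By pairs, WT was 4.12, 9.58 and 3.22 times dnTCF4, a mean log2 ratio of -2.33 ± 0.82 (SD, n = 3 pairs). The unfiltered limma difference was -0.08 (SE 0.042, adjusted p = 0.70) and -0.04 without WT replicate 1 (adjusted p = 0.83), and this scale understates a change at such levels. With a pseudocount of 0.1 the log2 difference was -0.57 for Lef1 and -1.50 for Tcf7, and on the recovered reads limma-voom without a filter gave -2.35 (SE 0.84, adjusted p = 0.51) and -1.78 (SE 0.62, adjusted p = 0.49).

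Tcf7 and Lef1 were both at least 3-fold lower in dnTCF4 in each of the 3 pairs. That bound was chosen after their values were seen. Among the 24071 genes whose mean reached 0.02 RPKM, 252 (1.05%) met it, of which 116 were immunoglobulin genes and 136 were not. The looser condition of being lower in each pair at all, which both genes also met, held for 879 of the 12745 genes with a mean from 0.02 to under 1 RPKM (6.9%).

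Tcf7l1 (TCF3; chr6:72626378-72789254, minus strand), the member best known as a repressor in pluripotent cells, was near the limit of detection in both genotypes. WT gave 0.0923, 0.0413 and 0.0376 RPKM and dnTCF4 0.121, 0.0414 and 0.0266 RPKM, from 6 to 30 reads a library. The highest value of each group was in replicate 1 and the groups overlapped throughout. The unfiltered limma difference was 0.01 (SE 0.040, adjusted p = 0.96), and its sign was negative after median ratio scaling.

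Tcf7l2 (chr19:55741820-55933654, plus strand), the gene of TCF4 itself, differed in the other direction from Tcf7. The WT libraries had 1.56, 1.29 and 1.69 RPKM and the dnTCF4 libraries 2.15, 1.99 and 2.80 RPKM. Every dnTCF4 value lay above every WT value, and the group means were 1.51 ± 0.202 and 2.31 ± 0.425 RPKM (SD, n = 3 each), a ratio of 1.53. The exact permutation test gave p = 0.1, the smallest possible. The limma difference was 0.39 (SE 0.16, 95% interval 0.0078 to 0.78), with an unadjusted p of 0.047 and an adjusted p of 0.52. Among all tested genes 852 (7.52%) were higher at an unadjusted p under 0.05, and 1747 (15.4%) had all dnTCF4 values above all WT values. With median ratio scaling the difference was 0.25. Reads of a transgene that shares sequence with Tcf7l2 would enter this value, and how many did was not tested.

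The make-up of the TCF/LEF transcripts differed between these WT and dnTCF4 libraries, a measure that no scaling of whole libraries can alter. Tcf7l2 made up 33.9%, 56.7% and 63.7% of the summed RPKM of the 4 factors in the WT libraries, in order of replicate, against 67.2%, 85.9% and 91.2% in dnTCF4. Tcf7 made up 60.8%, 38.9% and 33.7% in WT and 27.9%, 12.0% and 7.58% in dnTCF4. Neither share overlapped between the genotypes: the difference in means, dnTCF4 minus WT, was 30.01 percentage points for Tcf7l2 and -28.6 points for Tcf7, each with an exact permutation p of 0.1. That p is the smallest that 3 libraries against 3 can give. How many other sets of genes would give shares without overlap was not counted. As shares of the same sum, these differences are not independent of each other. Reads of a transgene counted to Tcf7l2 would raise its share and lower those of the other factors, and how many were was not tested. Lef1 had 1.202% to 3.24% of the sum in WT and 0.266% to 1.13% in dnTCF4 (exact permutation p = 0.1). Tcf7l1 had 1.42% to 2.01% and 0.869% to 3.78% (exact permutation p = 0.9). The family sum itself overlapped, at 4.59, 2.28 and 2.66 RPKM in WT and 3.21, 2.32 and 3.06 RPKM in dnTCF4. In WT replicate 1 Tcf7 was the most abundant factor, with 0.557 units of Tcf7l2 for 1 of Tcf7, and in dnTCF4 replicate 3 the ratio was 12.03.

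**Figure D2:**
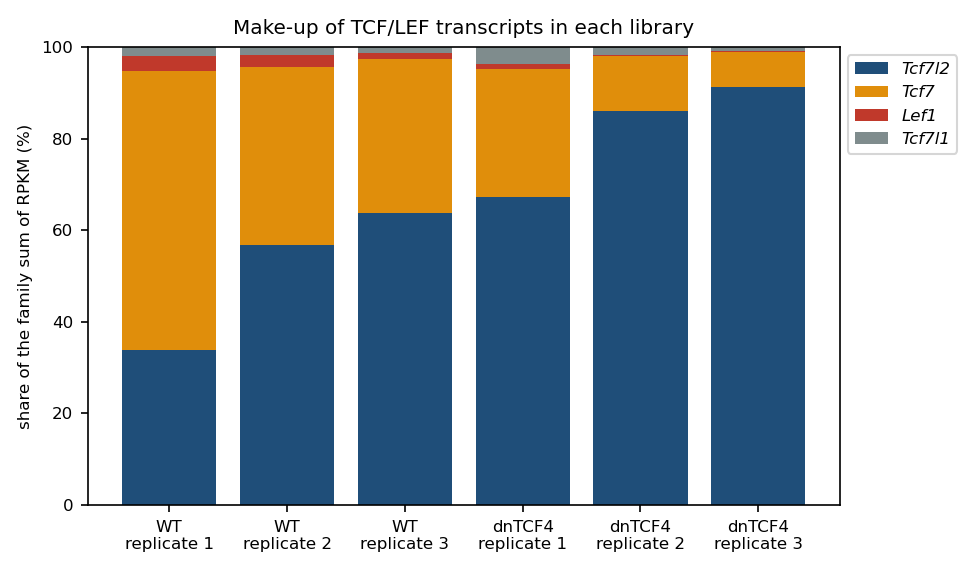
Share of each TCF/LEF gene in the summed RPKM of the 4 genes (y axis, %), 1 bar per library. Tcf7l2 runs from 33.9% to 63.7% in WT and from 67.2% to 91.2% in dnTCF4, and Tcf7 takes most of the remainder in all libraries.

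Summed T-cell and lymphoid progenitor markers were, like Tcf7, highest in replicate 1 of each genotype, but they did not follow Tcf7 throughout. Of the 13 genes of a T-cell list none was at 0 in any library, and their summed level was 107, 37.3 and 35.6 RPKM in WT and 97.4, 27.3 and 26.6 RPKM in dnTCF4. Most of each sum came from Lck, a kinase of T and NK cells at 59.9, 21.04 and 19.7 RPKM in WT against 50.4, 16.1 and 15.1 RPKM in dnTCF4, while the defining Cd3e was at 0.199 to 0.502 RPKM in WT and 0.0663 to 0.241 in dnTCF4. Of the 13 genes 7 had a lower mean in dnTCF4 and 6 a higher one, among them Cd3d (0.608 and 0.712 RPKM), Trbc2 (6.72 and 8.32) and Lat (2.18 and 3.14). The T-cell sum of dnTCF4 replicate 1 (97.4 RPKM) lay far above that of WT replicate 2 (37.3 RPKM), while Tcf7 was almost equal in both. A lymphoid progenitor list of 8 genes, led by the DNA polymerase gene Dntt, summed to 674, 202 and 179 RPKM in WT and 385, 104 and 101 RPKM in dnTCF4, with 4 genes higher in mean, Il7r among them, and 4 lower. An innate lymphoid and NK cell list of 10 genes summed to 996 to 1240 RPKM in WT and 754 to 1174 RPKM in dnTCF4, with 7 genes higher in mean and with Tbx21 and Eomes at 0 in some libraries. A B-cell list of 9 genes summed to 121 to 204 RPKM in WT and 99.96 to 144 RPKM in dnTCF4, with 6 genes higher in mean. A plasma cell list of 8 genes, led by Jchain, summed to 7835, 2712 and 2624 RPKM in WT and 669, 305 and 655 RPKM in dnTCF4, with 7 of the 8 genes lower without overlap, which 633 of the 24071 genes whose mean reached 0.02 RPKM were (2.63%). A neutrophil list of 9 genes summed to 621, 754 and 3121 RPKM in WT and 3073, 3723 and 7597 RPKM in dnTCF4. The part of these cell types in the Tcf7 and Lef1 values was not tested.

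Set against these lists, in ratios chosen after the values were seen, Tcf7 gave different answers. As a share of the T-cell sum it was 2.61%, 2.38% and 2.51% in WT and 0.918%, 1.02% and 0.873% in dnTCF4, with little spread within a genotype and no overlap between them (exact permutation p = 0.1). Against the single genes of that list, 9 of 13 ratios were lower in every dnTCF4 library than in every WT library. The ratio to Cd3e was not among them, at 5.56, 4.14 and 4.49 in WT and 3.71, 4.197 and 2.72 in dnTCF4 (exact permutation p = 0.2). The ratio to Cd28 differed in the other direction, at 1.68, 0.790 and 0.770 in WT and 3.22, 2.37 and 1.05 in dnTCF4 (exact permutation p = 0.2). As a share of the lymphoid progenitor sum Tcf7 was 0.414%, 0.440% and 0.4995% in WT and 0.232%, 0.266% and 0.229% in dnTCF4, and all 8 single-gene ratios were lower without overlap. Against the innate lymphoid and NK cell sum and the B-cell sum Tcf7 was also lower without overlap (exact permutation p = 0.1 for each). There 6 of 8 and 5 of 8 single-gene ratios were lower without overlap. How many of all genes would give such ratios with Tcf7 or Lef1 was not counted. Against the plasma cell sum the mean was higher in dnTCF4 and the groups overlapped, with 0.0356%, 0.0327% and 0.0341% in WT and 0.134%, 0.0911% and 0.0355% in dnTCF4 (exact permutation p = 0.2), and 0 of 8 single-gene ratios were lower without overlap. Within WT, the ratio of Tcf7 to each of the plasma cell, T-cell and lymphoid progenitor sums varied little. Lef1 was 0.139%, 0.158% and 0.0897% of the T-cell sum in WT and 0.0370%, 0.0225% and 0.0373% in dnTCF4, and 11 of the 13 single-gene ratios did not overlap.

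**Figure D3:**
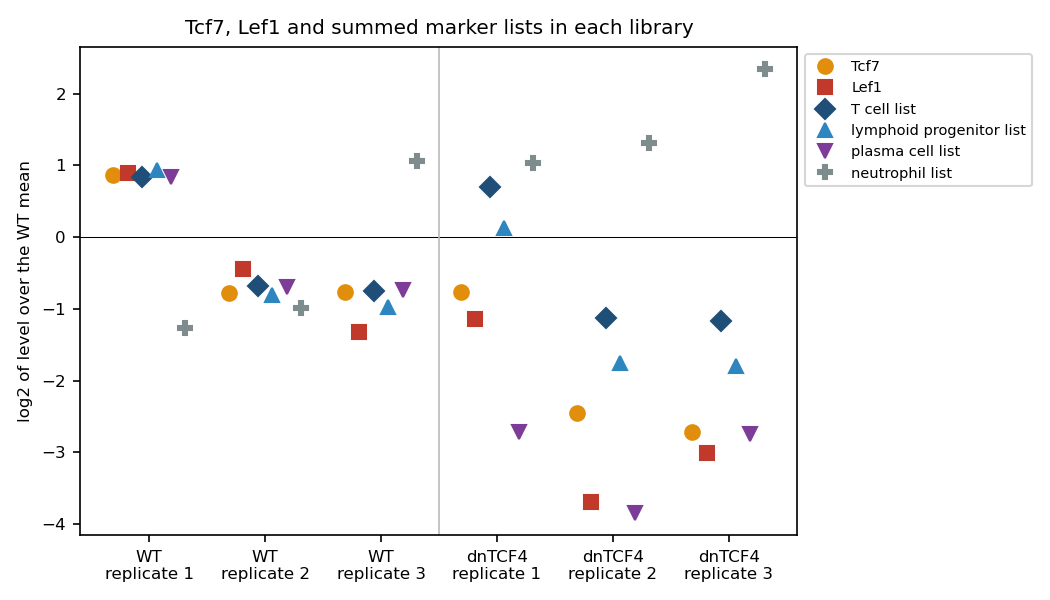
Level of Tcf7, Lef1 and 4 summed marker lists in each library as log2 of the level over the WT mean (y axis), with the 6 libraries along the x axis. In WT the lymphoid and plasma cell lists sit close to Tcf7, while in dnTCF4 Tcf7 lies below the T-cell and lymphoid progenitor lists in all 3 libraries and the neutrophil list lies highest.

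The 5 genes whose pattern over the 6 libraries was most like that of Tcf7, by Pearson's r on log2(RPKM + 1), were Rasgrp3 (r = 0.987), Tcrg-C2 (0.977), Tmprss7 (0.970), Zcchc18 (0.961) and Tmem154 (0.960). Tcrg-C2, a constant segment of the T-cell receptor gamma locus, had 5.10, 1.59 and 1.08 RPKM in WT against 1.44, 0.168 and 0.515 RPKM in dnTCF4. Rasgrp3, an activator of Ras in lymphocytes, had 4.02, 2.04 and 1.66 RPKM in WT against 1.57, 0.914 and 0.814 RPKM in dnTCF4. Only 6 of 11326 genes had an r above 0.95 with Tcf7. These correlations describe libraries that share the genotype difference and the high replicate 1, and carry no test.

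Of the catenins, Ctnnb1 (chr9:120929216-120960507, plus strand), which encodes β-catenin, was by far the more abundant. WT gave 10.3, 10.5 and 14.7 RPKM and dnTCF4 11.8, 9.52 and 17.4 RPKM, from 3359 to 5482 reads. Replicate 3 of both genotypes was the highest, and the lowest value of all was in dnTCF4 replicate 2. The difference was 0.10 (SE 0.26, 95% interval -0.51 to 0.70, adjusted p = 0.88) and the exact permutation test gave p = 0.7. At 95% confidence these libraries therefore leave room for a difference of either sign, and median ratio scaling gave -0.11. On the unstranded libraries, 759 exon bases of Ctnnb1 (14.62%) are shared with Ulk4 on the opposite strand, itself at 0.118 RPKM. The genes most like Ctnnb1 were Crtap (r = 0.999), Tm9sf3 (0.998), Suv39h2 (0.998), Tmem123 (0.997) and Mfsd4b4 (0.996), and 314 of 11325 genes had an r above 0.95 with it.

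Jup (chr11:100368958-100397763, minus strand) encodes plakoglobin (γ-catenin), a desmosome protein that can also bind TCF/LEF factors. WT gave 0.174, 0.179 and 0.248 RPKM, from 71, 71 and 108 reads, and dnTCF4 gave 0.278, 0.287 and 0.371 RPKM, from 113, 205 and 137 reads. All dnTCF4 values lay above all WT values, with group means of 0.200 ± 0.0414 and 0.312 ± 0.0511 RPKM (SD, n = 3 each) and a ratio of 1.56. The pairs were alike, with a mean log2 ratio of 0.65 ± 0.058 (SD, n = 3 pairs). The exact permutation test gave p = 0.1 and the unfiltered limma fit 0.13 (SE 0.054, adjusted p = 0.68). Among genes with a mean from 0.02 to under 1 RPKM, 1252 of 12745 (9.82%) were higher in dnTCF4 without overlap.

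The ratio of the catenins also differed between these WT and dnTCF4 libraries. Ctnnb1 stood at 59.3, 58.6 and 59.4 times Jup in the WT libraries and at 42.5, 33.1 and 46.9 times in the dnTCF4 libraries, means of 59.1 ± 0.41 and 40.9 ± 7.04 (SD, n = 3 each). The ratios did not overlap, and the exact permutation p was 0.1, the smallest possible. How many other pairs of genes would give ratios without overlap was not counted. Counting error alone is 5.77 to 7.11 (SE) on each WT ratio, from 71 to 108 reads of Jup, so the closeness of the WT ratios is beyond what these reads can resolve. Plakoglobin thus made up 1.66% to 1.68% of the catenin sum in WT and 2.09% to 2.93% in dnTCF4, a minor part in both.

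The coactivators of the β-catenin complex had no common direction. Bcl9 (chr3:97203662-97297917, minus strand), the scaffold between β-catenin and Pygopus, had 1.53, 1.198 and 1.56 RPKM in WT against 1.87, 1.86 and 2.39 RPKM in dnTCF4, from 625 to 1738 reads. All dnTCF4 values lay above all WT values, with means of 1.43 ± 0.203 and 2.04 ± 0.306 RPKM (SD, n = 3 each), a ratio of 1.42 and an exact permutation p of 0.1. The limma difference was 0.32 (SE 0.16, 95% interval -0.048 to 0.69, adjusted p = 0.58), and 0.18 after median ratio scaling. With Tcf7l2, 2 of the 5 members tested were higher without overlap, against 15.4% of all tested genes. After median ratio scaling, a setting added after the values were seen, Tcf7l2 and Jup still did not overlap but Bcl9 did. Of the genes whose scaled mean reached 1 RPKM, 5.54% were higher without overlap. Jup lay under that level, where the share after scaling was not counted. Across libraries Tcf7l2 and Bcl9 kept close to each other, with 1.013 to 1.08 units of Tcf7l2 for 1 of Bcl9 in WT and 1.07 to 1.17 in dnTCF4 (exact permutation p = 0.3).

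Its paralog Bcl9l (chr9:44482825-44511896, plus strand), which takes the same place in the complex, had 1.36, 1.13 and 1.26 RPKM in WT against 1.83, 1.38 and 0.885 RPKM in dnTCF4. The dnTCF4 libraries held both the highest and the lowest of the 6 values. The difference was 0.05 (SE 0.18, adjusted p = 0.91), with a sign that turned under median ratio scaling (-0.07). Bcl9 made up 51.5% to 55.4% of the sum of both genes in WT and 50.5%, 57.4% and 73.0% in dnTCF4 (exact permutation p = 0.5), and only dnTCF4 replicate 3 stood apart. Part of the Bcl9l exons, 662 bases (8.28%), overlaps the opposite-strand model Gm47205, and 110 bases (1.38%) overlap Cxcr5.

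Pygo2 (chr3:89430214-89435128, plus strand), which reads methylated histone H3 through its PHD finger, was the second most abundant member. WT gave 2.00, 2.51 and 2.90 RPKM and dnTCF4 gave 2.77, 2.28 and 2.34 RPKM, from 462 to 918 reads. The groups overlapped and their means were nearly equal, 2.47 ± 0.451 and 2.46 ± 0.266 RPKM (SD, n = 3 each), with a difference of 0.00 (SE 0.17, adjusted p = 1.00) in limma and -0.15 after median ratio scaling. Pygo1 (chr9:72925645-72952181, plus strand), the other Pygopus gene, was read in 2 libraries, with 3 reads in WT replicate 1 (0.00597 RPKM) and 15 reads in dnTCF4 replicate 3 (0.0330 RPKM). It was at 0 in the other 4, where a count of 0 allows up to 3 reads, or 0.00342 to 0.00614 RPKM. Such limits cover counting error only.

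**Figure D4:**
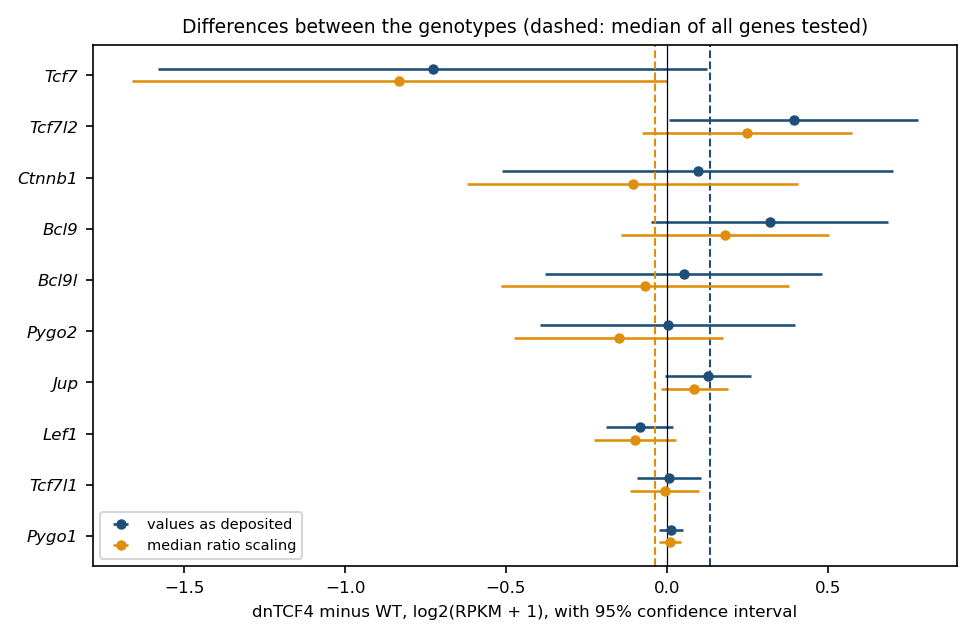
Difference between genotypes for the 10 genes (x axis, dnTCF4 minus WT, log2(RPKM + 1)) with limma's 95% confidence interval, as deposited and after median ratio scaling. Genes under the mean of 1 RPKM come from the fit without a filter, dashed lines are the medians of all tested genes (0.14 and -0.04), and the interval of Tcf7l2 as deposited is the one that lies above 0.

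As a group, the 5 members whose mean reached 1 RPKM all had higher means in dnTCF4 as deposited, with a median log2 difference of 0.10, against 0.14 and 68.5% higher over all tested genes. After median ratio scaling 6 members were tested, 2 of them higher, with a median of -0.09 against -0.04 and 43.6%. The number of members above 0 thus followed the scaling, as it did for all genes.

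The partners of these proteins were read from lists fixed with the members, and 0 genes of any of them passed the adjusted threshold. Of the corepressors of TCF, 8 of 10 genes were tested, 6 higher and 2 lower in mean (median log2 difference 0.14). The named ones were Aes, a short Groucho protein (WT 3.76 ± 0.485 RPKM, dnTCF4 5.27 ± 0.976 RPKM, log2 difference 0.39), the Groucho genes Tle3 (0.18) and Tle4 (0.19) and the histone deacetylase gene Hdac1 (0.17). Of the destruction complex, 12 of 14 were tested, 10 higher and 2 lower (median 0.23). Gsk3b, a kinase that marks β-catenin, averaged 6.26 ± 0.102 RPKM in WT against 7.88 ± 1.00 RPKM in dnTCF4 (0.28), without overlap as deposited but with overlap after median ratio scaling. The scaffold gene Apc (0.29), the kinase gene Csnk1a1 (0.47) and the ubiquitin ligase gene Btrc (0.20) also had higher means. Like Gsk3b, Btrc and Hdac1 were higher without overlap as deposited, as were 15.4% of all tested genes. After median ratio scaling the higher and lower counts were 3 and 5 for the corepressors and 9 and 3 for the destruction complex.

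Of the partners and regulators of β-catenin and TCF, 16 of 19 were tested, 14 higher and 2 lower (median 0.26), and 13 and 3 after median ratio scaling. Med12, a Mediator subunit that contacts the BCL9 and Pygopus complex, averaged 0.864 ± 0.129 RPKM in WT against 1.34 ± 0.267 RPKM in dnTCF4 (SD, n = 3 each), without overlap. Xiap, a ubiquitin ligase of Groucho proteins, averaged 3.84 ± 0.694 and 5.50 ± 1.22 RPKM, also without overlap, while Tbl1xr1 (log2 difference 0.42) and the TCF/LEF kinase gene Nlk (0.42) overlapped. With Cby1 and Crebbp, 4 genes of this list were higher without overlap as deposited, against 15.4% of all tested genes. Med12 and Xiap still did not overlap after median ratio scaling, when 5.54% of all tested genes were higher without overlap. Of the other catenins and cadherins, 4 of 14 were tested, 3 higher and 1 lower (median 0.08), and 1 and 3 after median ratio scaling (median -0.098). They were Ctnnd1 (p120-catenin, log2 difference 0.34), Pkp4 (0.11), Ctnnbl1 (0.04) and Ctnna1 (α-catenin, -0.16).

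Among 20 Wnt target genes, Tcf7 and Lef1 included, 3 reached the level needed for testing, 2 higher and 1 lower (median 0.06). After median ratio scaling 4 were tested, 1 higher and 3 lower (median -0.15). The adhesion receptor gene Cd44 averaged 44.8 ± 8.50 RPKM in WT against 62.9 ± 8.13 RPKM in dnTCF4 (SD, n = 3 each), without overlap as deposited but with overlap after median ratio scaling (log2 difference 0.49, adjusted p = 0.52 in limma). Of all tested genes 15.4% were higher without overlap as deposited. Myc (0.06) and Znrf3 (-0.01), a feedback inhibitor of the pathway, differed by less than their spread. Apcdd1, an inhibitor of Wnt signalling below the level needed for testing, was 0.219, 0.445 and 0.296 RPKM in the WT libraries against 0.125, 0.119 and 0.0685 RPKM in dnTCF4, lower without overlap with either scaling. As deposited, 1 of the 20 genes was lower without overlap, Apcdd1. Of the 24071 genes whose mean reached 0.02 RPKM, 633 (2.63%) were, a share that was not counted after scaling. Axin2, a feedback gene of the pathway that is widely used as its readout, averaged 0.0391 ± 0.0137 (WT) and 0.0334 ± 0.0387 RPKM (dnTCF4). These values rest on 13, 9 and 20 reads in WT and 27, 4 and 5 in dnTCF4. With so few reads, neither a change of Axin2 nor its absence can be told. Apcdd1 and Axin2 were named after their values were seen.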

How the data were processed

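The authors deposited 1 table of RPKM values for 6 libraries (3 of each genotype, per the labels separate mice). Per the labels' protocols, 20 ng of RNA entered a SMART-Seq kit and libraries were made with Nextera XT, which does not mark strand. STAR, featureCounts, DESeq2, edgeR, mm10 and GRCm38 are named per the submitters' processing notes. What each did, its version and the gene annotation were not given in the sources used here. RPKM times the GENCODE M21 exon length fell within 0.02 of a whole read for 95.6% to 96.1% of the genes checked in each library, which gave the reads and depths.

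Genes whose mean reached 1 RPKM were tested with limma 3.58.1 in R 4.3.3 on log2(RPKM + 1), with a mean-variance trend, 2-sided, Benjamini-Hochberg adjusted over all tested genes, with genotype as the only term. Members under that level were read from the same fit without a filter. Same-numbered libraries deviated together from their group means over genes (correlations 0.17, 0.35 and 0.30), so the numbers were taken as pairs, on this evidence from the data. Libraries of unlike number gave correlations from -0.33 to 0.091, the highest of them not far below the lowest matched value. Within a group the deviations cancel out, so positive matched values force negative ones elsewhere, and the pairing itself was not tested. Single values were compared with exact permutation tests of 3 against 3. Named genes were all members, up to 4 genes per pathway list with the smallest p among those tested, the 5 genes most correlated with Tcf7 and with Ctnnb1, and genes of marker lists beside a result; Apcdd1 and Axin2 were named outside this rule. The members and lists were chosen with earlier results of these data known. Alternatives were the pseudocount (0.1), filters, scaling, immunoglobulin genes left out, the replicate block, limma-voom on 10004 genes with recovered reads (27172 without a filter, for members under the level), and each library left out.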

Additional observations from a re-analysis of the deposited data

How the results depend on the processing

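The 34 calls over all genes became 0 with immunoglobulin genes left out (603 genes at an unadjusted p under 0.05), 14 with limma-voom on recovered reads, 6 without a filter, and 7 to 34 with 1 library left out (7 without WT replicate 1, 18 without WT replicate 3, 22, 16 and 11 without dnTCF4 replicates 1, 2 and 3). With the replicate block, which uses the pairing, 49 genes passed, and no member's call changed. No member passed under any alternative run. Tcf7 and Lef1 stayed lower, and Tcf7l2, Jup and Bcl9 higher, in each alternative run for them (Tcf7l2 had no whole reads for limma-voom), with adjusted p from 0.45 to 0.90 for Tcf7, 0.50 to 0.95 for Lef1 and 0.26 to 0.99 for Tcf7l2. The members tested and higher numbered 1 at a mean of at least 5 RPKM, 2 with median ratio scaling or immunoglobulin genes left out, 8 without a filter and 3 to 5 with a library left out. Their median log2 difference was -0.087 with median ratio scaling, -0.076 with immunoglobulin genes left out, 0.032 without a filter and 0.019 to 0.17 with a library left out.

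The sign turned for 5 members whose differences were small. With median ratio scaling the log2 difference was -0.0063 for Tcf7l1, -0.11 for Ctnnb1, -0.068 for Bcl9l and -0.15 for Pygo2. With immunoglobulin genes left out it was -0.0055, -0.093, -0.060 and -0.14 for the same genes. Limma-voom gave -0.050 for Tcf7l1. With 1 library left out the values ran from -0.031 to 0.032 for Tcf7l1, -0.13 to 0.28 for Ctnnb1, -0.087 to 0.21 for Bcl9l, -0.0029 to 0.021 for Pygo1 and -0.098 to 0.091 for Pygo2. The cause was not tested. Lef1, Tcf7l1 and Pygo1 rest on 0 to 83 reads a library, which limits what can be told of them.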
